A study of Mus musculus with 6 samples.

Results

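The genes described here encode the proteins of the cytosolic ribosome, measured in cultured mouse cortical astrocytes with and without deletion of Neo1, the gene of the netrin and RGM receptor neogenin. Members were the rows whose symbol is Rpl or Rps followed by a number and at most a short suffix, with Rplp0, Rplp1, Rplp2, Rpsa and Gm11361. This gave 90 of the 54532 genes in the count table. Rps18, a small subunit gene, and Gm11361, an annotated gene nearly identical to it, were kept apart from the other 88. Of those 88, 76 are called core genes below because neither their symbol nor their annotation marks them as a paralog or a pseudogene: 43 of the large subunit, 3 of its stalk and 30 of the small subunit. A further 6 are paralogs and 6 are annotated pseudogenes.

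The study held 6 RNA-seq libraries in all. The knockout group (n = 3) was cultured from GFAP-Cre::NEOf/f pups, in which Cre recombinase under the GFAP promoter recombines the floxed gene in cells that use that promoter. The control group (n = 3) came from littermate pups labelled as control, with library names that begin with Neoff. The pups' age and sex and how many pups made up a culture are not stated in the labels. The labels call the replicates biological.

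A ribosome has a small subunit, which reads the messenger RNA, and a large subunit, which forms the peptide bond. Their proteins are needed in nearly equal amounts, and their messenger RNAs belong to the TOP class, which start with a run of pyrimidines and are translated under the control of mTORC1. In astrocytes, as in other cells, these messenger RNAs are among the most abundant. Ribosomal protein genes have also left many processed pseudogenes in the mouse genome, so that reads of a parent gene and of its copies can be hard to assign.

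For 2 members, Rps18 and Rpl29, the counts of the gene and of its copies moved in opposite directions, and the bases that tell them apart are shown first. Positions are counted from 1 at the first base of the parent's start codon, and capitals mark positions at which any of the sequences shown in a set differ. All come from the GENCODE M21 transcripts of build GRCm38. Rps18 lies on chromosome 17, 33951999 to 33956001, minus strand. Gm11361 lies on chromosome 13, 28257528 to 28258134, plus strand. Rps18-ps3, a processed pseudogene, lies on chromosome 8, 107262793 to 107263248, minus strand. Positions 161 to 200 of the Rps18 coding sequence, which hold a difference of each copy in exon 3 of 5, read as follows.
Rps18: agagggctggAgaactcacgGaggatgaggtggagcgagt
Gm11361: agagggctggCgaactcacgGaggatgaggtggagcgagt
Rps18-ps3: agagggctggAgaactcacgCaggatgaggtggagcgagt

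Positions 321 to 360 hold a base, in exon 4, that both copies share and Rps18 does not.
Rps18: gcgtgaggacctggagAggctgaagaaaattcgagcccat
Gm11361: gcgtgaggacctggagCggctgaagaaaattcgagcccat
Rps18-ps3: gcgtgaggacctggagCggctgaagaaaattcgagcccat

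Over the 456 coding bases of Rps18, Gm11361 differed at 3 positions (T11A, A171C and A337C, the Rps18 base first). Rps18-ps3 also differed at 3 (G181C, A337C and C430T).

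Rpl29 lies on chromosome 9, 106429454 to 106431568, plus strand, the chromosome that also carries Neo1 (58874687 to 59036441, minus strand). Whether this position has a part in its counts was not tested. The 480 coding bases of Rpl29 differed from those of Gm13841 and of Gm8210, processed pseudogenes on chromosomes 5 and 1, at the same 3 positions (C72A, C300T and T423C). Positions 41 to 80, which hold the first of these in exon 3 of 4, are shown with Gm10709, a processed pseudogene on chromosome 9.
Rpl29: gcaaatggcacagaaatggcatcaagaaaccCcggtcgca
Gm13841: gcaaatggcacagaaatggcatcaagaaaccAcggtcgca
Gm8210: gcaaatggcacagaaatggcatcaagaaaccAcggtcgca
Gm10709: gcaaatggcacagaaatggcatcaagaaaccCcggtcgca

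Gm10709 lacks C72A but has C300T and T423C, with G205A and G457A. Of the 8 Rpl29 copies with enough counts to be tested, only Gm13841 and Gm8210 carry C72A.

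Values below are CPM (counts per library size, as edgeR's cpm gives them) with library sizes scaled by TMM, which sets the bulk of genes equal between libraries. Tests are two-sided edgeR quasi-likelihood tests over all 18530 genes with enough counts, with Benjamini-Hochberg adjustment. The words rose and fell are used where the adjusted p was under 0.05, and log2 fold changes are knockout over control. Libraries held 60819277 to 106081115 counts. Neo1 stood at 189, 189 and 198 CPM in control and at 101, 106 and 105 CPM in knockout libraries. It fell by 0.89 on the log2 scale (SE 0.05, adjusted p = 5.8e-11), so that reads of the gene remained at a fold of 0.54.

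A larger share of cytosolic ribosomal protein genes rose than fell in the knockout cultures, and most passed in neither direction. Of the 84 members tested (Rps18 and Gm11361 apart), 32 rose, 1 fell and 51 passed in neither direction. Among all genes tested, 19.6% rose and 18.7% fell. An estimate above 0 was found for 72 of the 84, and the median log2 fold change was 0.13, against -0.002 for all genes tested. The rises were small: all 32 were under 1.5-fold and 22 were under 1.2-fold. In 34 members every knockout library lay above every control library, and in 1 every knockout library lay below. Over all genes tested, 24.7% lay above in this way and 24.5% below. The 4 members with too few counts to be tested were the paralogs Rpl10l, Rpl39l and Rpl3l and the pseudogene Rps12l1.

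**Figure D1:**
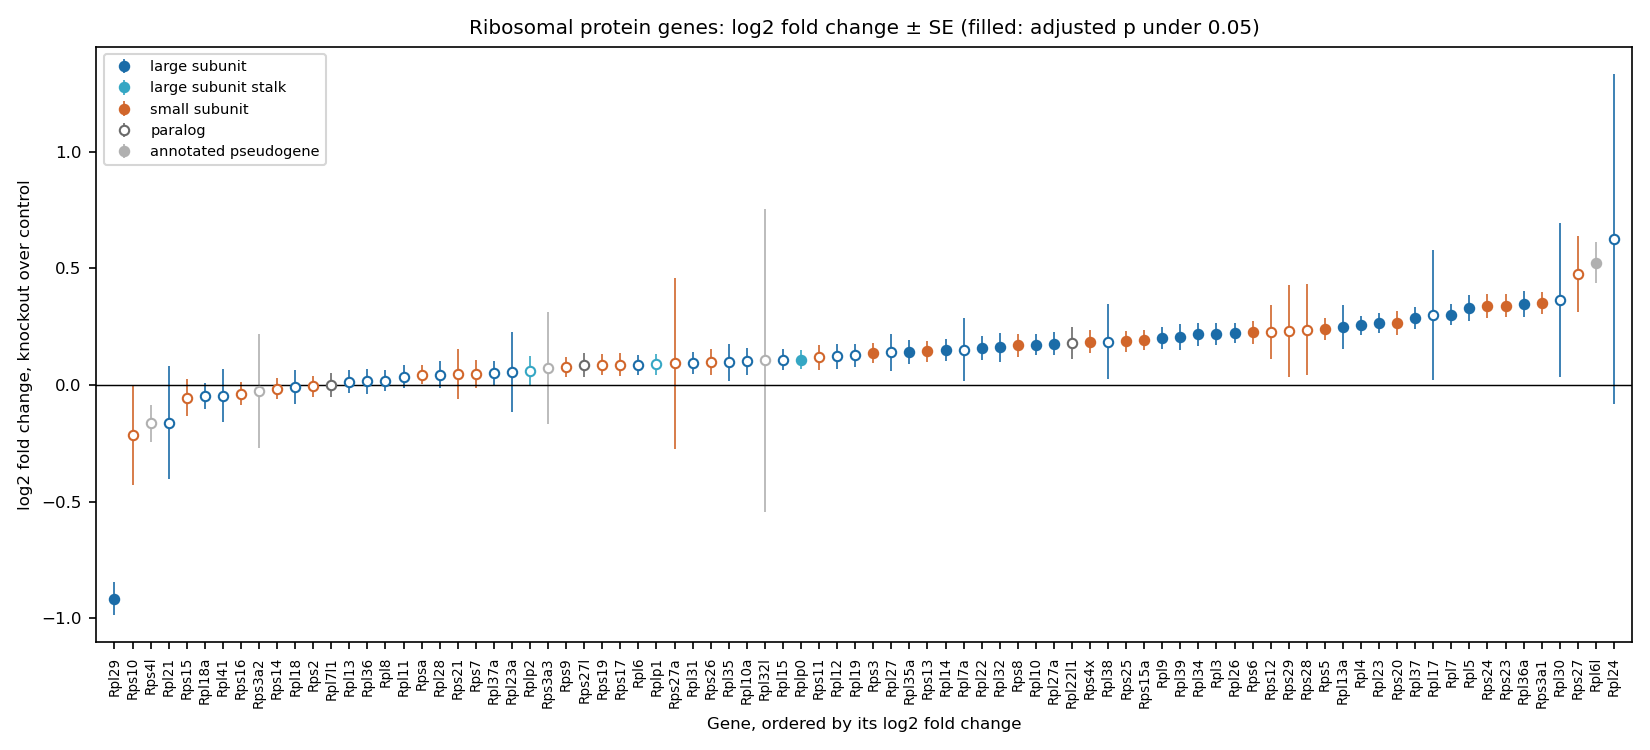
The log2 fold change (knockout over control) of each of the 84 tested members is plotted with its standard error, with genes on the x axis ordered by that value, colours for the class of the member and filled points for an adjusted p under 0.05. Most points lie above 0, with Rpl29 alone among the filled points below it; Rps18 and Gm11361 are not plotted.

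As a share of all counts, the 88 members made up 2.41, 2.39 and 2.25% of counts in control and 2.53, 2.40 and 2.44% in knockout libraries. The means were 2.35 ± 0.09% and 2.46 ± 0.07% (SD, n = 3 each). These ranges overlap, so the summed share did not separate the groups. With total counts in place of TMM, 19 members rose and 2 fell, with a median of 0.07 against -0.07 for all genes. The second fall was Rps4l, at -0.23 (adjusted p = 0.031), an annotated pseudogene.

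In the large subunit, 18 of 43 genes rose and 1 fell, with a median log2 fold change of 0.15. Rpl36a, an X-linked gene whose protein sits near the exit site for transfer RNA, stood at 91.6, 90.1 and 85.2 CPM in control and at 116, 120 and 104 CPM in knockout cultures. Every knockout library was above every control library, and the log2 fold change was 0.35 (SE 0.06, adjusted p = 9.5e-05). Rpl7, an RNA-binding protein of the large subunit, stood at 483, 473 and 449 CPM in control and at 561, 614 and 558 CPM in knockout cultures. The groups did not overlap (log2 fold change 0.30, SE 0.05, adjusted p = 4.8e-05). Rpl37, a zinc-binding protein of the large subunit, stood at 143, 140 and 137 CPM in control and at 179, 164 and 168 CPM in knockout cultures. It rose by 0.29 on the log2 scale (SE 0.05, adjusted p = 0.00011). Rpl5 carries the 5S RNA into the large subunit together with Rpl11. It was measured at 426, 423 and 398 CPM in control and at 500.1, 579 and 490.0 CPM in knockout cultures, the second knockout library being the highest (log2 fold change 0.33, SE 0.06, adjusted p = 0.00017). Its partner Rpl11 stood at 340 ± 13.3 CPM in control against 348 ± 21.3 CPM in knockout cultures (SD, n = 3), a log2 fold change of 0.03 (SE 0.05) that did not pass (adjusted p = 0.63).

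In the stalk, through which the ribosome recruits translation factors, Rplp0 passed the test and its partners did not. Rplp0, the anchor of the stalk, stood at 984, 949.6 and 903 CPM in control and at 1040, 1012 and 1009 CPM in knockout cultures. The groups did not overlap, but the log2 fold change was only 0.11 (SE 0.04, adjusted p = 0.043). Rplp1 and Rplp2, the acidic proteins that hang on it in pairs, had log2 fold changes of 0.09 (SE 0.05, adjusted p = 0.14) and 0.06 (SE 0.06, adjusted p = 0.51). The Rplp0 call was lost without control replicate 2 (adjusted p = 0.13), without control replicate 3 (adjusted p = 0.13), without knockout replicate 1 (adjusted p = 0.17) and without knockout replicate 3 (adjusted p = 0.082). It was also lost with upper-quartile scaling (adjusted p = 0.10), with total-count scaling (adjusted p = 0.42) and with no filter on low counts (adjusted p = 0.07).

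In the small subunit, 12 of 30 genes rose and none fell, with a median of 0.14. Rps3a1, a protein near the messenger RNA exit, stood at 544, 549.6 and 512 CPM in control and at 665, 727 and 656 CPM in knockout cultures. The groups did not overlap, and the log2 fold change of 0.35 (SE 0.05, adjusted p = 9.9e-06) was the largest among small subunit genes that rose. Rps23, a protein of the decoding centre, stood at 297, 309.6 and 286 CPM in control and at 401, 373 and 356 CPM in knockout cultures. It rose by 0.34 on the log2 scale (SE 0.05, adjusted p = 2.4e-05). Rps24, whose human counterpart is mutated in some families with Diamond-Blackfan anaemia, stood at 290.0, 296 and 269 CPM in control and at 359, 382 and 339.6 CPM in knockout cultures. It rose to the same extent, by 0.34 (SE 0.05, adjusted p = 3.5e-05). Rps6, the substrate of S6 kinase downstream of mTORC1, rose by 0.23 (SE 0.05, adjusted p = 0.0013). Rpsa, which also serves as a laminin-binding protein at the cell surface, did not pass, at 961 ± 42.3 CPM in control against 991 ± 18.9 CPM in knockout cultures (log2 fold change 0.04, SE 0.04, adjusted p = 0.44).

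The 4 X-linked core genes, Rpl10, Rpl36a, Rpl39 and Rps4x, all rose, by 0.17, 0.35, 0.21 and 0.19 on the log2 scale. Of all 76 core genes 40.8% rose, and of all genes tested 19.6%. Rpl36a, Rpl39 and Rps4x are also among the 25 core genes with the lowest coding GC content, of which 18 rose (below). Rpl10, Rpl39 and Rps4x lost the call with total-count scaling (adjusted p = 0.054, 0.055 and 0.052). Xist, the RNA that silences an X chromosome in female cells, was at most 0.36 CPM in every library. The Y-linked genes Ddx3y, Eif2s3y, Kdm5d and Uty were present in every library and had folds of 1.70, 1.32, 1.36 and 1.54 in knockout over control. The part of the Y-linked difference in the result for X-linked members was not tested.

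Of the paralogs, 3 were expressed enough to be tested and none passed. Rpl22l1, the paralog of Rpl22, stood just outside the threshold, with an estimate of 0.18 on the log2 scale (SE 0.07, adjusted p = 0.053). Rpl32, at 0.16 (SE 0.06, adjusted p = 0.048), stood just inside it, with groups that overlap. Its call was lost without control replicate 1 (adjusted p = 0.051), without control replicate 2 (adjusted p = 0.07), without control replicate 3 (adjusted p = 0.21), without knockout replicate 1 (adjusted p = 0.22) and without knockout replicate 3 (adjusted p = 0.11). Rpl22 itself rose by 0.16 (SE 0.05, adjusted p = 0.018). That call was lost without control replicate 2 (adjusted p = 0.081), without control replicate 3 (adjusted p = 0.076), without knockout replicate 1 (adjusted p = 0.11) and with total-count scaling (adjusted p = 0.15). Rpl7l1 and Rps27l had log2 fold changes of 0.001 (SE 0.05) and 0.09 (SE 0.05). Rpl10l had no count in any library, and Rpl39l and Rpl3l had at most 20 and 8 counts in a library.

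Among the 5 annotated pseudogenes tested, Rpl6l rose. It stood at 23.8, 26.0 and 23.6 CPM in control and at 40.4, 34.5 and 30.6 CPM in knockout cultures, without overlap, and its log2 fold change of 0.52 (SE 0.09, adjusted p = 0.00013) was the largest among the 32 that rose, Rps18 apart. Rpl6, the protein-coding gene of that name, stood at 457 ± 16.6 CPM in control against 485 ± 12.1 CPM in knockout cultures (SD, n = 3) and did not pass (log2 fold change 0.09, SE 0.04, adjusted p = 0.12). Rps4l, Rps3a2, Rps3a3 and Rpl32l had log2 fold changes of -0.16, -0.03, 0.07 and 0.11, and none passed.

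Rps18, whose protein lies in the head of the small subunit, rose by a fold of 2.26 as counted. It stood at 180.0, 178 and 166 CPM in control and at 407, 385 and 392 CPM in knockout cultures. The groups were far apart, and the log2 fold change was 1.18 (SE 0.05, adjusted p = 1e-12). Gm11361 went the other way, from 61.1, 59.7 and 55.3 CPM to 5.48, 4.09 and 5.84 CPM. It fell by 3.51 on the log2 scale (SE 0.10, adjusted p = 2.1e-13). Gm11361 thus held 25.4, 25.2 and 25.0% of the counts of the pair in control and 1.33, 1.05 and 1.47% in knockout libraries. The Wilson 95% intervals, which cover counting error only, ran from 24.5 to 26.1% in control and from 0.94 to 1.61% in knockout libraries. Rps18-ps3 also fell, from 3.02 ± 0.35 to 0.93 ± 0.21 CPM (SD, n = 3; log2 fold change -1.70, SE 0.24, adjusted p = 2.3e-05). Both copies that fell carry A337C.

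When the counts of Rps18 and Gm11361 were summed before the fit, the pair stood at 233 ± 10.5 CPM in control against 399.9 ± 12.1 CPM in knockout cultures (SD, n = 3). The log2 fold change of the sum was 0.78 (SE 0.05, adjusted p = 3e-10), a fold of 1.72, smaller than that of Rps18 alone. With all 6 listed near-identical copies added it was 0.76 (SE 0.05, adjusted p = 2.8e-10). Reads placed on rows other than these, or left uncounted because they map to several places, are not in these sums.

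Rpl29, a large subunit protein also known for binding heparin, was the 1 member that fell, Gm11361 apart. It stood at 167, 167 and 191 CPM in control and at 103, 84.2 and 91.2 CPM in knockout cultures. Every knockout library was below every control library, and the gene fell by 0.92 on the log2 scale (SE 0.07, adjusted p = 8.3e-08). Its copies Gm13841 and Gm8210 rose. These copies are identical to each other over the Rpl29 coding sequence, so how counts divide between them is uncertain. Gm13841 went from 9.26, 8.74 and 5.98 CPM to 20.2, 17.6 and 17.7 CPM (log2 fold change 1.22, SE 0.14, adjusted p = 2.9e-06). Gm8210 went from 2.28, 2.64 and 1.2 CPM to 8.26, 6.74 and 7.48 CPM (log2 fold change 1.90, SE 0.23, adjusted p = 6.2e-06). In both, the third control library was the lowest. These 2 copies together held 6.47, 6.39 and 3.62% of their counts plus those of Rpl29 in control libraries, and 21.6, 22.4 and 21.6% in knockout libraries. The other 6 copies tested did not pass. Gm10709, for example, stood at 8.83 ± 1.44 CPM in control against 7.07 ± 1.54 CPM in knockout cultures (adjusted p = 0.13). With all 26 listed copies added, the sum still fell, by 0.61 on the log2 scale (SE 0.07, adjusted p = 1.9e-06), from 197 ± 10.7 to 129 ± 14.0 CPM.

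**Figure D2:**
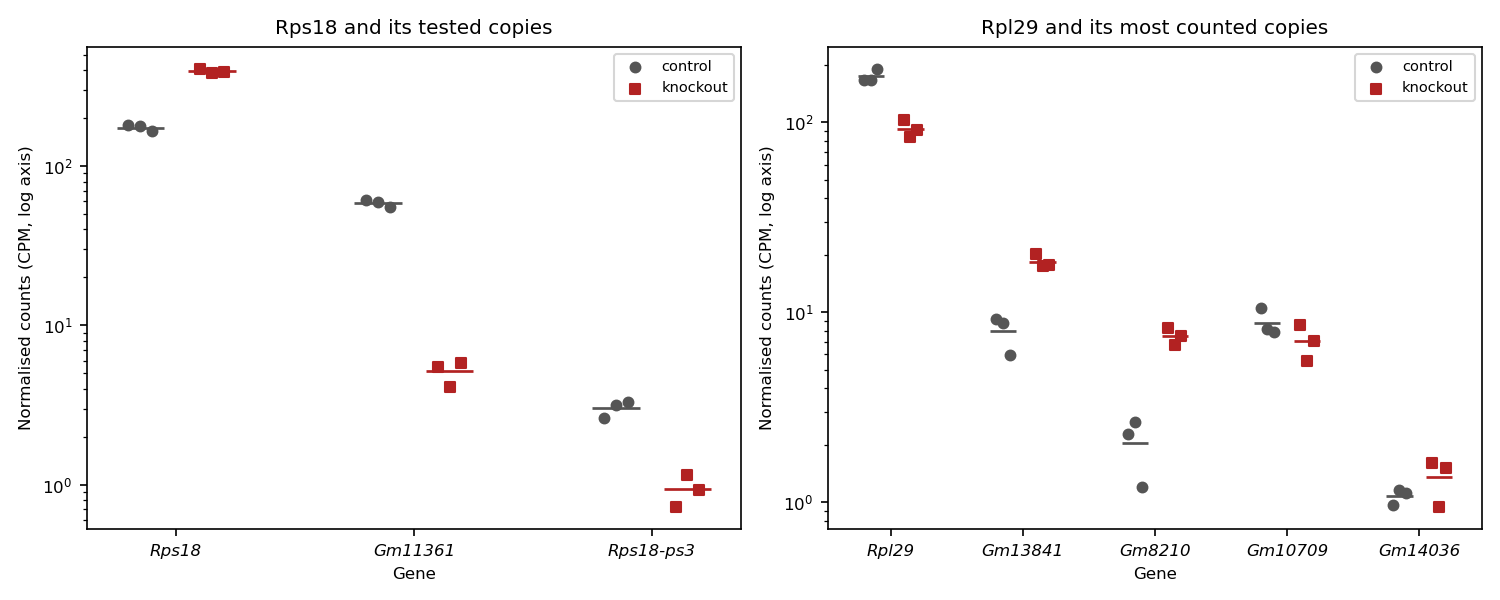
CPM on a log axis of Rps18 and its 2 tested copies (left) and of Rpl29 and its 4 most counted copies (right), with 1 point for each library and a line at the mean of each group of 3. Rps18 is higher in knockout libraries and both its copies lower; Rpl29 is lower in knockout libraries, and Gm13841 and Gm8210 higher.

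Among members with a tested copy, such opposite movement was seen for Rps18 and Rpl29. In most pairs the copy did not pass, so how common opposite movement was cannot be read from these counts. Near-identical copies (at least 95% identity over at least 100 bases) were found for 79 members, 595 copies in all, and 257 pairs of a member and a copy were tested. In 4 pairs both passed in opposite directions: Rps18 with Gm11361 and with Rps18-ps3, and Rpl29 with Gm13841 and with Gm8210. Gm13841 and Gm8210 are identical to each other over the Rpl29 coding sequence, so their pairs need not be separate cases. In 9 pairs both passed in the same direction. These were Rpl3 with Rpl3-ps1, Rpl5 with Gm15500, Rpl9 with Rpl9-ps6, Rpl14 with Rpl14-ps1, Rpl23 with Gm9794, Rpl34 with Gm10154, Rpl36a with Rpl36a-ps2, Rps4x with Gm9616 and Rps6 with Rps6-ps4. Only the member passed in 84 pairs, only the copy in 10 and neither in 150. With the counts of all copies added to each member, 38 members rose and 1 fell, and 31 of these 38 were among the 32 that rose without copies.

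Levels as counted differed widely among members. Per kilobase of transcript, the mean level of core genes had a median of 299 CPM. The highest were Rplp1 with 1039, Rpl41 with 965 and Rps2 with 865 CPM per kilobase, and the lowest were Rpl24 with 0.42, Rps10 with 2.56 and Rpl13a with 18.4 CPM per kilobase. Rps10-ps2, a processed pseudogene with 99.0% identity to Rps10, held between 94.2 and 96.4% of the counts of Rps10 and itself in every library. Neither Rps10 (log2 fold change -0.21, SE 0.21, adjusted p = 0.48) nor the sum of Rps10 and its copies (0.02, SE 0.07, adjusted p = 0.87) passed. With its 4 listed copies added, Rpl24 stood at 7.09 ± 0.07 CPM in control against 6.63 ± 1.34 CPM in knockout cultures. That sum did not pass (log2 fold change -0.10, SE 0.14, adjusted p = 0.65). The row of Rpl24 alone, which need not give its level, had at most 34 counts in a library. Its estimate was 0.63 (SE 0.71, adjusted p = 0.54). The highest members did not pass either: Rpl41 was at -0.05 (SE 0.11, adjusted p = 0.81) and Rps2 at -0.01 (SE 0.04, adjusted p = 0.94).

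In 5 members without a call, at least 1 library lay far from the others of its group. Rps27a, which encodes ubiquitin fused to a small subunit protein, stood at 106, 106 and 208 CPM in control and at 184, 142 and 124 CPM in knockout cultures. Rpl30 stood at 42.5, 41.2 and 67.2 CPM in control and at 74.4, 44.3 and 76.1 CPM in knockout cultures. Rpl17 stood at 88.0, 110.0 and 162 CPM in control and at 126, 163 and 156 CPM in knockout cultures. In all 3 genes the third control library was the highest of its group. Rpl30 was also low in the second knockout library, and Rps27a differed among all 3 knockout libraries. None passed with all libraries, and without the third control library none did either (adjusted p = 0.16, 0.23 and 0.05, the last just over the threshold). Rpl21 was low in the first control library, at 54.7 CPM against 89.1 and 87.8 CPM, and was at 69.6, 78.6 and 59.4 CPM in knockout cultures. It did not pass with all libraries (log2 fold change -0.16, SE 0.24, adjusted p = 0.67), but without that control library it fell by 0.36 on the log2 scale (adjusted p = 0.0075). The sum of Rpl21 and its listed copies was at -0.01 (SE 0.08, adjusted p = 0.92). Rps27 was low in the second control library, at 68.0 CPM against 96.6 and 97.5 CPM, and at 134, 113 and 117 CPM in knockout cultures. It did not pass with all libraries (log2 fold change 0.48, SE 0.16, adjusted p = 0.073), but did without that library (0.32, adjusted p = 0.0032). Its near-identical copy Rps27rt was highest in the same control library, at 60.7 CPM against 35.7 and 21.1 CPM, and stood at 16.1, 47.3 and 18.5 CPM in knockout cultures. With copies summed, Rps27 rose by 0.23 (adjusted p = 0.0042). The libraries left out for these 5 members were picked because they lay apart. The adjusted p without them show only that the calls depend on 1 library.

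The second knockout library was the lowest of its group for 21 of the 36 core genes with a coding length under 450 bases and for 20 of the 40 longer ones. Rpl38 stood at 104, 67.1 and 90.0 CPM in knockout cultures against 77.1, 78.0 and 75.0 CPM in control. Rps28 stood at 125, 77.8 and 112 CPM against 92.6, 91.7 and 82.9 CPM. Rpl23a stood at 97.2, 62.9 and 92.0 CPM against 81.6, 79.8 and 81.1 CPM. None of the 3 passed with all libraries, and without the second knockout library all 3 did (log2 fold changes 0.34, 0.41 and 0.23, adjusted p = 0.00012, 1.6e-05 and 0.00091). These 3 were picked because that library was low for them, so the adjusted p without it follow in part from that choice. Rps29, at 157, 101 and 116 CPM in knockout cultures against 116, 108 and 94.1 CPM in control, and Rpl30 did not pass without it (log2 fold changes 0.36 and 0.57, adjusted p = 0.24 and 0.25). Without it 44 members rose and 1 fell. For the 76 core genes, the log2 ratio of the second knockout library to the mean of the other 2 was taken. Its Spearman rho was 0.29 (Pearson r 0.35) with coding length and -0.42 (r -0.27) with the GC content of the coding sequence. This ratio was below 0 for 25 of the 36 shorter genes, 23 of the 40 longer ones and 9270 of all 18530 genes tested. Coding length and the knockout over control fold change had a rho of -0.07 (r 0.02). Genes share libraries and are not independent, so these are descriptions across genes.

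More core genes rose among those with low GC content in their coding sequence than among those with high. Of the 25 core genes with the lowest coding GC (44.9 to 50.6%), 18 rose and none fell, with a median log2 fold change of 0.22. Of the 26 in the middle (50.7 to 54.6%), 10 rose and none fell, with a median of 0.14. Of the 25 with the highest (54.7 to 61.6%), 3 rose and 1 fell, with a median of 0.06. Other genes within these 3 ranges went the same way: 32.9% rose and 14.5% fell in the lowest range, 22.3% and 25.3% in the middle one, and 14.1% and 37.9% in the highest.

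Coding GC and the log2 fold change had a Spearman rho of -0.61 (Pearson r -0.49) over the 76 core genes and of -0.38 (r -0.29) over 12233 other coding genes. Coding GC was the strongest of 4 features looked at. Transcript GC gave a rho of -0.46 (r -0.41) and GC at the third codon base -0.51 (r -0.39), while coding length gave the value above. All points share the same 6 libraries. Each library was also corrected for transcript GC, a step chosen after the relation was seen. It removes the trend with transcript GC across genes, with any genotype difference that follows GC, so a weaker relation was built in. The rho of coding GC over core genes was then -0.10 (r -0.15). With the correction, 43 members rose and 1 fell, and the median was 0.16. Of the 32 members that rose without it, 27 also rose with it. The 5 that did not were Rpl5 (0.12, adjusted p = 0.055), Rpl35a, Rps3, Rps15a and Rps20. Rplp1, Rplp2 and Rps2 were among the 16 that rose only with the correction, at log2 fold changes of 0.25, 0.16 and 0.12 (adjusted p = 7.5e-05, 0.022 and 0.0074). Whether GC content or genotype sets the order of the members was not tested.

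**Figure D3:**
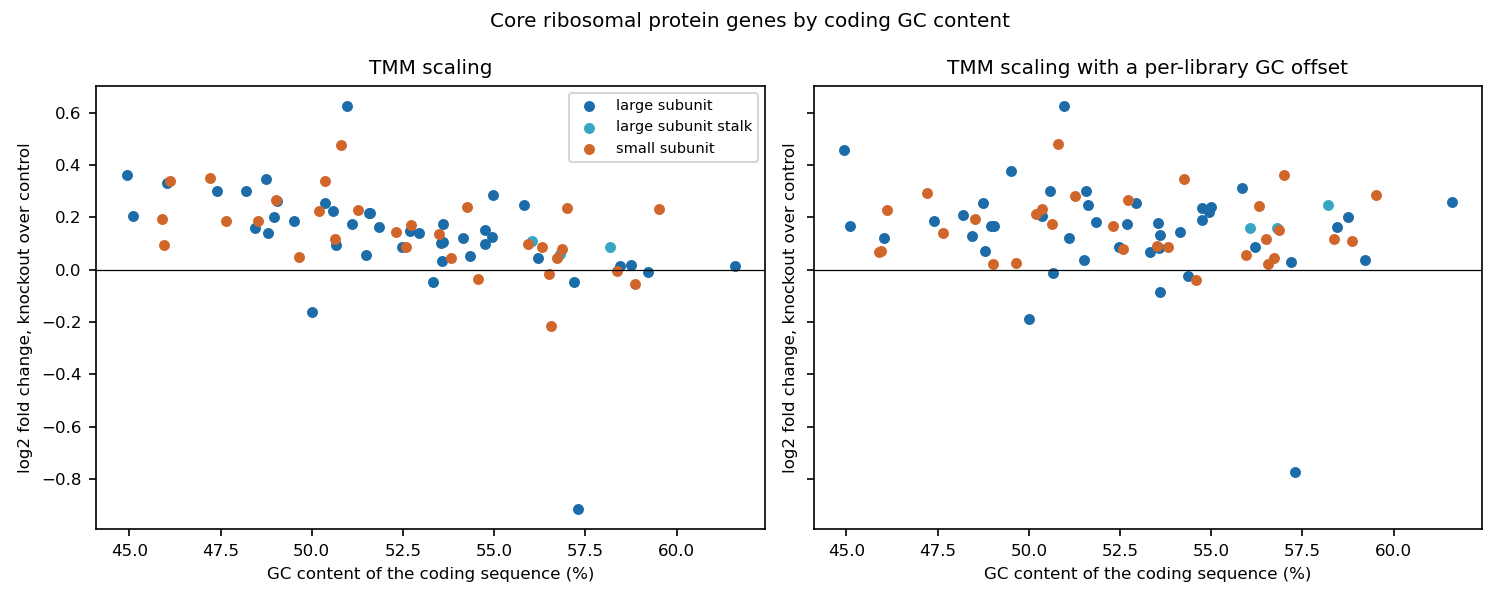
Each point is 1 of the 76 core genes, with the GC content of its coding sequence on the x axis in percent and its log2 fold change, knockout over control, on the y axis, without (left) and with (right) a correction of each library for GC. The downward slope on the left (rho -0.61) is nearly gone on the right (rho -0.10), as the correction itself takes out a trend with GC. Most points on the right still lie above 0.

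TOP messenger RNAs start with a C followed by pyrimidines. The RefSeq table of start sites (GRCm38.p6) held an entry for 57 of the 77 core genes and Rps18. A run was scored as a C followed by at least 4 more C or T bases on the coding strand, with that C within 10 bases of the annotated start on either side. It was present in 34 of the 57 (59.6%), against 34.4% of all 27025 genes in the table. The share was 46.2% for the translation factors and other genes with TOP messenger RNAs (6 of 13 with an entry) and 44.9% for mitochondrial ribosomal proteins (31 of 69). It was present in 13 of 26 that rose (50%) and in 21 of 31 that did not pass (67.7%), and the difference between these shares was not tested. In Rpl36a and Rps23, which rose, the scored run began 9 and 3 bases after the annotated start. The 15 bases on either side of the start are shown for Rps18 (chr17:33955651-33955680, minus strand) and Rps24 (chr14:24490663-24490692, plus strand), as examples with the run, in capitals, at the start.
Rps18: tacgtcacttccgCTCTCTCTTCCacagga
Rps24: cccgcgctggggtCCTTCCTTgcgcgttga

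Other genes of the translation machinery that the name rule left out gave the following values. Rack1, a scaffold on the small subunit, stood at 669, 671 and 628 CPM in control and at 735, 736 and 726 CPM in knockout cultures and rose by 0.16 (SE 0.04, adjusted p = 0.0044). With total-count scaling that call was lost (0.09, adjusted p = 0.071). Fau and Rpl36al, which encode further ribosomal proteins, did not pass (log2 fold changes 0.03 and -0.05). Of 19 translation factors and other genes with TOP messenger RNAs, 10 rose (52.6%, against 19.6% of all genes tested) and none fell, with a median of 0.16. Among them Npm1, a nucleolar chaperone of ribosome assembly, rose from 310.3 ± 5.64 to 440.0 ± 27.9 CPM (log2 fold change 0.50, SE 0.05, adjusted p = 1.5e-07). Pabpc1, the cytoplasmic poly(A)-binding protein, rose from 678 ± 1.29 to 864 ± 33.9 CPM (0.35, SE 0.04, adjusted p = 2e-06). Hnrnpa1 rose by 0.24 (SE 0.04, adjusted p = 0.00014), as did Eif3e by 0.34 (SE 0.06, adjusted p = 9.5e-05), which lost its call with the GC correction (0.07, adjusted p = 0.29).

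Of 52 ribosome biogenesis genes, 20 rose and 5 fell, with a median of 0.06. These shares were 38.5 and 9.62%, against 19.6 and 18.7% of all genes tested. Ncl, the nucleolar protein nucleolin, rose from 516 ± 10.9 to 713 ± 34.8 CPM (log2 fold change 0.47, SE 0.04, adjusted p = 1.3e-07). Mdn1, an ATPase that removes factors from the maturing large subunit, rose by 0.67 (SE 0.07, adjusted p = 8.8e-07). Wdr43 and Dkc1, which act in small subunit assembly and in RNA pseudouridylation, rose by 0.41 and 0.48. Without control replicate 2, 11 of the 52 rose, and with total-count scaling also 11. Without control replicate 1, 3 rather than 5 fell.

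Of 14 RNA polymerase I genes, 3 rose and 4 fell (21.4 and 28.6%, against 19.6 and 18.7% of all genes tested). Polr1a, its largest subunit, rose by 0.36 (SE 0.05, adjusted p = 1.9e-05), and Polr1c and Polr1d fell by 0.30 each on the log2 scale. Of 17 genes of mTORC1 and of the control of ribosomal protein synthesis, 5 rose and 3 fell (29.4 and 17.6%). Larp1, which binds TOP messenger RNAs, rose by 0.24 (SE 0.04, adjusted p = 0.00018). Rheb, the activator of mTORC1, fell by 0.34 on the log2 scale (SE 0.05, adjusted p = 6.3e-05). Rps6kb1, the S6 kinase, rose by 0.43 (SE 0.07, adjusted p = 9.7e-05), a call lost with the GC correction (0.12, adjusted p = 0.12). Of 20 genes of p53 and its targets, 5 rose and 6 fell. Mdm4, an inhibitor of p53, rose by 0.70 (SE 0.07, adjusted p = 3.9e-07), and Pmaip1, a target that promotes cell death, fell by 0.78 on the log2 scale (SE 0.07, adjusted p = 3.4e-08).

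Most proteins of the mitochondrial ribosome did not pass. Of 77 tested genes, 4 rose, 17 fell and 56 passed in neither direction, with a median of -0.10 and 62 estimates below 0. The share that fell, 22.1%, was close to the 18.7% of all genes tested, and the share that rose was 5.19% against 19.6%. Mrps6, for example, fell from 120 ± 7.6 to 73.1 ± 2.62 CPM (log2 fold change -0.71, SE 0.06, adjusted p = 1.3e-08). As a share of all counts, mitochondrial ribosomal protein genes were 0.233 to 0.251% in control and 0.208 to 0.217% in knockout libraries, ranges that do not overlap. The difference between the 2 ribosomes was not itself tested. With total-count scaling, 1 of the 77 rose and 34 fell. That scaling also lowered the median of all genes tested, from -0.002 to -0.07. The share of all genes that fell with it is not reported here.

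**Figure D4:**
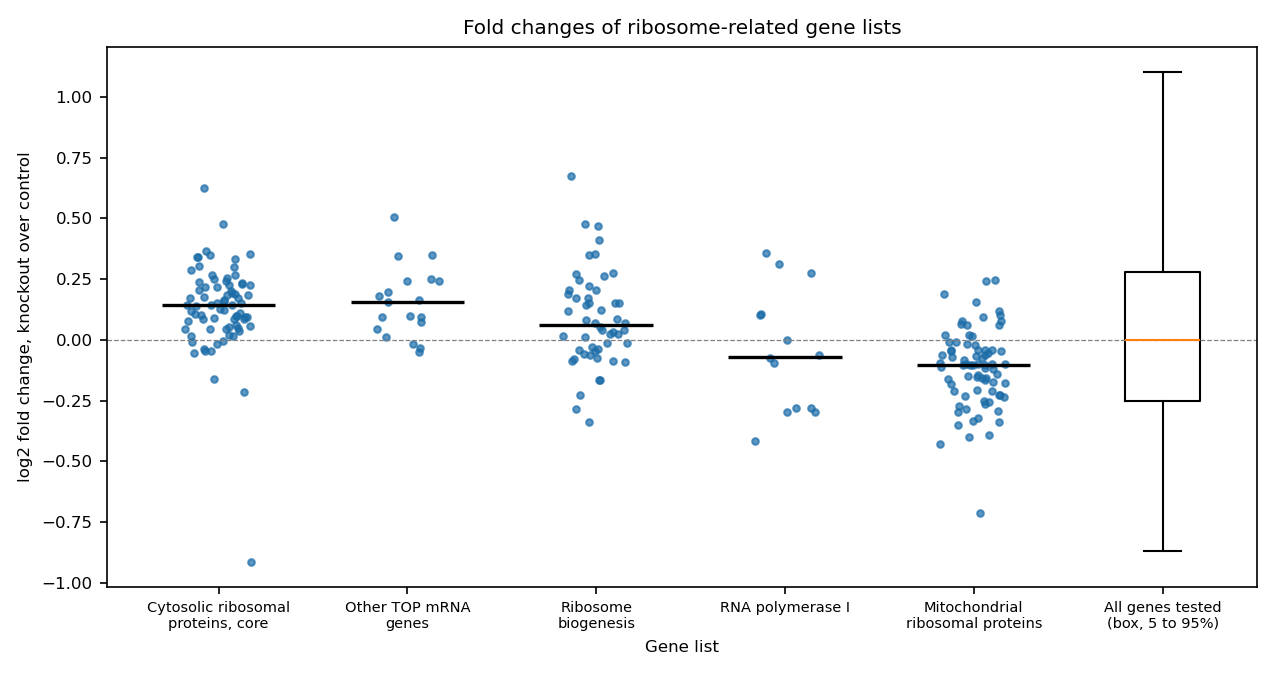
Each point is the log2 fold change, knockout over control, of 1 tested gene in a list (x axis), with a line at the list's median, and the box gives the quartiles of all genes tested with whiskers from the 5th to the 95th percentile. Core cytosolic ribosomal protein genes have a median of 0.14 and mitochondrial ribosomal protein genes one of -0.10.

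Cell type markers also differed between the groups. For the counts below, 19.6% of all genes tested rose and 18.7% fell. Of 12 astrocyte markers, 7 fell and 2 rose, with summed levels of 2790 to 2870 CPM in control and 2510 to 2640 CPM in knockout libraries. Gfap itself fell from 946 ± 20.8 to 431 ± 3.85 CPM (SD, n = 3). That fall was larger than the fall of the sum, so the mean summed level of the other astrocyte markers was higher in knockout cultures. Of 12 microglia and macrophage markers, 10 fell and 1 rose (sum 72.1 to 74.5 CPM against 35.1 to 37.5 CPM), and of 8 tested fibroblast and meningeal markers 6 rose and none fell (sum 3010 to 3200 CPM against 4670 to 5280 CPM). Of 6 tested endothelial markers 3 rose, and of 6 tested choroid plexus and ependymal markers 3 fell and 1 rose, with Ttr near 0 in every knockout library. Neuron markers (2 of 8 fell) and oligodendrocyte markers (3 of 7 fell, 1 rose) were low apart from Stmn2, Tubb3, Olig1, Olig2 and Cspg4. Slc6a13, Dpt, Cldn5, Mog, Tmem212 and Kcnj13 were at or near 0 in every library. The part of these differences in the result for ribosomal protein genes was not tested. In bulk cultures, fewer cells of a type and less RNA per cell cannot be told apart.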

How the data were processed

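Polyadenylated RNA of 6 libraries, 3 control and 3 knockout, was selected on poly-T beads, per the labels' protocols. The submitters' processing notes name HISAT2 2.2.1, featureCounts 2.0.6 and the build GRCm38 (mm10). The authors deposited raw counts per gene. Which annotation release, strand option and treatment of multi-mapping reads were used is not stated in the labels or notes, so counts of near-identical copies, and of overlapping or antisense genes, are uncertain.

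Tests used edgeR 4.0.16 under R 4.3.3 (TMM; filterByExpr with a minimum count of 10 and a minimum total of 15; robust quasi-likelihood fit on genotype; threshold 0.05); the code was tested on simulated data. Of 54532 identifiers, 54409 matched GENCODE M21, including all 90 members. No library was a duplicate: within groups, pairs had a chi-square of 6 to 22.2 per gene. Copies were found with BLAST 2.17.0 on 1 transcript per gene (identity of 95% or more, 100 aligned bases or more and 50% of the copy). Alternatives were other scalings, filters and tests (DESeq2 1.42.0, limma 3.58.1), a threshold of 0.01, a replicate block, copies summed and each library left out.

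Members and lists were chosen with earlier results of these data known. Genes were named by rule: Neo1, Rps18 and Gm11361, the stalk genes, Rpsa and Rps27a, paralogs with their parents, the 8 largest rises and falls, the 3 highest and lowest levels, 3 genes outside the name rule (1 further gene of that list is not reported here) and up to 4 called genes per list. The GC correction (loess on transcript GC), the grouping by GC, the length relation, the start-site run, the condition on copy coverage and genes named for a library apart, for their copies, as partner of Rpl5 or as marker were chosen after values were seen. P-values measure the spread between these cultures.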

Additional observations from a re-analysis of the deposited data

How the results depend on the processing

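Rps18 (log2 fold change 0.76 to 1.26), Gm11361 (-3.61 to -3.38), their sum (0.71 to 0.80) and Rpl29 (-0.998 to -0.612) kept their direction and call under every alternative run, and 16 of the 32 members that rose did so under all 18 other settings at the 0.05 threshold. The number of members that rose was 23 to 44 and that fell 1 to 2 when each library was left out in turn; Rpl21 was the second to fall, without control replicate 1. It was 37 and 1 with a replicate block, although same-numbered libraries did not deviate together (correlations 0.015, 0.019 and -0.008). With total-count scaling, 19 rose, 2 fell and the median was 0.067. With copies summed, the share of counts was 2.51% in control and 2.63% in knockout libraries.

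For the other lists, total-count scaling gave 0 rises outside the name rule, 11 rises in ribosome biogenesis, 7 falls in RNA polymerase I, 6 in mTORC1 genes, 11 in p53 genes, 1 rise and 34 falls in mitochondrial ribosomal proteins and 3 falls in ribosomal protein pseudogenes. Total-count scaling put the median of all genes tested at -0.067, against -0.002 with TMM. With all settings as reported, 21 of the 259 tested pseudogenes rose and 1 fell. These shares, 8.11 and 0.386%, were both below the 19.6 and 18.7% of all genes tested. A threshold of 0.01 gave 12 rises and 2 falls in ribosome biogenesis, 1 rise in mitochondrial ribosomal proteins and 12 in pseudogenes. The GC correction gave 2 rises outside the name rule and 1 in RNA polymerase I. Falls of pseudogenes were 2 with no filter, with DESeq2, without the robust option and with the replicate block, and 4 with limma-voom. Leaving out each library gave 11 to 18 rises and 3 to 5 falls in ribosome biogenesis, 1 to 3 rises in mitochondrial ribosomal proteins and 1 to 3 falls of pseudogenes.

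Directions turned only in genes that had not passed. With total-count scaling they were Rplp2 (-0.005), Rpsa (-0.020), Rpl7l1 (-0.064) and Fau (-0.036). With the GC correction they were Rpl22l1 (-0.085), Rpl7l1 (-0.027), Rps27l (-0.056), Rps3a3 (-0.0029), Rps4l (0.034), Rps2 (0.12, adjusted p = 0.0074) and Rpl41 (0.069). Rpl7l1 also turned with upper-quartile scaling (-0.015), no filter (-0.0058) and copies summed (0.00), Rps2 with a filter of 1 CPM (0.0011) and Rpl24 with copies summed (-0.10). Leaving out each library gave ranges across 0 for Rplp2 (-0.0058 to 0.13), Rps27a (-0.082 to 0.50), Rpl32l (-0.52 to 0.48), Rpl7l1 (-0.032 to 0.044), Rps3a2 (-0.13 to 0.075), Rps3a3 (-0.19 to 0.33), Rps2 (-0.040 to 0.030), Rpl41 (-0.14 to 0.075), Fau (-0.035 to 0.11) and Rpl36al (-0.32 to 0.14). Of 1228 values of named genes under alternatives, 31 lost a call and 21 gained one without a change of direction. Rps2 also gained a call, with its direction turned, under the GC correction. Rps27 gained a call under 6 settings and Rps12 under 5. Causes were not tested. Precision was low for members with few counts, such as Rpl24 (SE 0.71); the effect of depth was not tested.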
